A study of Homo sapiens with 6 samples.

Results

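In IMR90 fibroblasts, 2251 distal cohesin loci without CTCF were found in control, ICM-treated and senescent cells alike. They were chosen by their presence in peak lists. Overlapping peaks of the 3 SMC1 lists were merged into 22580 loci on chromosomes 1 to 22 and X. A locus was kept when all 3 SMC1 lists had a peak in it, no peak of any CTCF list touched it, and it lay more than 5 kb from every annotated protein-coding 5′ end. These loci made up 27.3% of the 8247 loci that all 3 SMC1 lists held (exact 95% interval 26.3 to 28.3%, counting error over loci only) and 53.6% of the 4203 such loci that were free of CTCF. Since presence in the lists and absence from the CTCF lists chose them, neither is a result. The SMC1 lists hold only the top 1% of regions by signal, as do the CTCF lists, so absence of CTCF means absence from those lists. Such loci are candidate fibroblast enhancers. No histone mark was analysed here, so this name could not be checked directly.

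Cohesin is a ring-shaped complex that holds DNA strands and extrudes chromatin loops, and SMC1 is a core subunit of it. Loops often stop where CTCF, an insulator protein, is bound in a fixed orientation. Cohesin also occupies active promoters and enhancers without CTCF, where it is loaded together with transcription factors and the Mediator complex. In fibroblasts, enhancers are commonly bound by AP-1, the dimer of FOS and JUN proteins, along with TEAD and RUNX factors.

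The study applied CUT&Tag, in which a transposase tethered to an antibody cuts the DNA beside the bound protein, to IMR90, a primary lung fibroblast line of fetal origin. For each antibody there was 1 library of control cells of low passage, 1 of low-passage cells treated with ICM, and 1 of cells passaged into senescence. ICM is inflachromene, a small molecule that binds the chromatin proteins HMGB1 and HMGB2. All library titles begin with I79, a label that they do not explain. The SMC1 libraries carry the passage labels p16 (control), p16 (ICM) and p34 (senescent), and the CTCF libraries p21, p16 and p34. Treatment lasted 6 days in the CTCF library and is given no duration in the label of the SMC1 library. The titles with p34 name no treatment, and were read as the high-passage senescent samples of the series design. With 1 library per group there was no spread between replicates, so conditions are described and nothing between them was tested. The SMC1 lists held 14883 (control), 17809 (ICM) and 12927 (senescent) peaks and the CTCF lists 4673, 6728 and 8577. The number of reads behind each list is unknown here.

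Sequence could be read for 95 of the loci (4.22%), in which at least 150 bases of a 300-base RefSeq window around an annotated start fell. All 95 windows belonged to lncRNA genes, and 31 of them held the letters TGACTCA or their reverse complement TGAGTCA, which AP-1 binds. The loci with AP-1 letters were ranked by the lowest of their percentiles of total SMC1 signal in the SMC1 lists. The 6 shown are of the highest-ranked loci. Each is given as 100 bases of RefSeq sequence on GRCh38.p14, written 5′ to 3′ on the lncRNA strand, with the AP-1 letters in capitals.
LOC107985502: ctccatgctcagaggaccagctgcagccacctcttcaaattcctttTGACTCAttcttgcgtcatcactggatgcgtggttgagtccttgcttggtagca
LOC124903079: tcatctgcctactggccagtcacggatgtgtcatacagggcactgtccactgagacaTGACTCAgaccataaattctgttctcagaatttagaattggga
RUNX1-AS1: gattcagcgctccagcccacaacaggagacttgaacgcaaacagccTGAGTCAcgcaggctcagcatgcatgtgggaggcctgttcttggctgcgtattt
MYOSLID: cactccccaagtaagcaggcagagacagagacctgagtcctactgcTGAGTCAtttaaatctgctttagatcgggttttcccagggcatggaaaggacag
LINC03108: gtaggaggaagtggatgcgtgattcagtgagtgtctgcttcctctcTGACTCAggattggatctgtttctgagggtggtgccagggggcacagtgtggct
GPRC5D-AS1: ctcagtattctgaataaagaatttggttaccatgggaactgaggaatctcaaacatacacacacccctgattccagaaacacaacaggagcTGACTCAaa

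LOC107985502 (chr21:42040525-42040624, plus strand) lies in a locus 21594 bp from the nearest protein-coding 5′ end, that of UMODL1, with a total SMC1 signal of 29767 in control, 15716 after ICM and 11267 in senescent cells. Total signal is the read coverage summed over a peak, in the units of the deposited lists. LOC124903079 (chr12:114933533-114933632, minus strand) lies 249095 bp from TBX3, a T-box factor of limb and lung development, in a locus with 15883, 12798 and 10609 in the same order. RUNX1-AS1 (chr21:34836185-34836284, plus strand) starts inside RUNX1, which encodes a factor that partners with AP-1, and its locus had 10752, 9066 and 5650. All 3 loci were highest in the control list on this raw scale, as were 67.2% of the distal CTCF-free loci. Centred on the median ratio of all loci that the 3 SMC1 lists hold, their log2 ratios differed in sign. In the same order of loci they were -0.45, 0.16 and 0.22 for ICM over control. For senescent over control they were -0.76, 0.063 and -0.28.

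MYOSLID (chr2:207239577-207239676, plus strand), a lncRNA of smooth muscle, lies 65016 bp from KLF7 in a locus with 15923, 7852 and 5618. LINC03108 (chr1:234980783-234980882, minus strand) lies 147230 bp from TOMM20, a subunit of the mitochondrial import pore, and had 16352, 9881 and 5247. GPRC5D-AS1 (chr12:12979787-12979886, plus strand) lies 19851 bp from HEBP1 and was highest after ICM, with 7878, 10537 and 5950.

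Across the 95 windows, 32.6% held AP-1 letters (exact interval 23.4 to 43.0%). The share was 3.40% of 1413 windows in promoter-proximal CTCF-free cohesin loci (2.52 to 4.48%), 13.9% of 72 windows in distal loci with CTCF in all 3 lists (6.87 to 24.1%), 6.49% of all 12829 lncRNA windows and 4.92% of all 34961 windows of that length. The interval of the distal CTCF-free loci overlapped that of the distal CTCF loci and lay above the others. Promoter-proximal loci lie within 5 kb of a protein-coding 5′ end, so their windows need not be lncRNA starts, as all 95 are. The windows of LOC101928188 and LOC105371401 are nearly alike in sequence and were counted separately. TEAD letters (CATTCC or GGAATG) stood in 22.1% of the windows, against 12.0% in promoter-proximal loci, 20.8% in distal CTCF loci and 17.1% of all lncRNA windows, or 14.0% of all windows. RUNX letters (AACCACA or TGTGGTT) stood in 6.32%, against 2.62%, 2.78%, 5.28% and 4.28% in the same order. ETS letters (CCGGAAG or CTTCCGG), common at housekeeping promoters, stood in 10.5%, against 20.3%, 8.33%, 5.85% and 10.3%. None of these 4 motifs contains another, both strands were read, and a match is a description of the letters and not of a bound site. The median GC content was 57.7% in the windows of the distal CTCF-free loci, 66.0% in promoter-proximal, 61.2% in distal CTCF and 50% in all lncRNA windows, and its part in the motif shares was not tested.

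**Figure D1:**
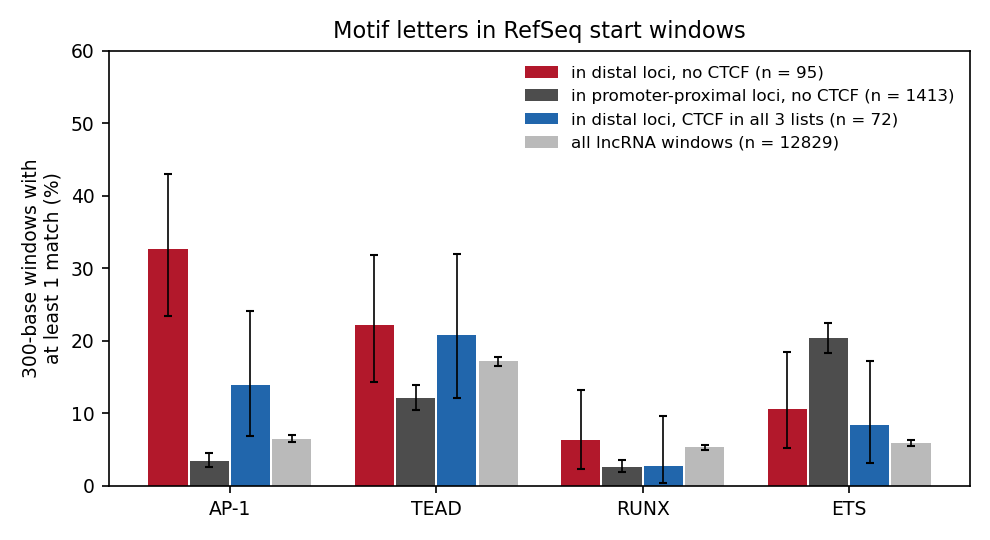
Share of 300-base RefSeq start windows (vertical axis, percent) with at least 1 match to each motif, for windows in 3 classes of cohesin loci and for all lncRNA windows; bars start at 0 and error lines are exact 95% intervals over windows. The AP-1 bar of the distal CTCF-free loci stands at 32.6%, that of promoter-proximal loci at 3.40% and that of all lncRNA windows at 6.49%.

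Distances from the AP-1 letters to the point of highest SMC1 signal were measured, without other letters for comparison. Of the AP-1 matches in these windows, 33 fell inside the locus, at a median distance of 72 bp from the peak summit in control, 77 bp after ICM and 105 bp in senescent cells. Within 100 bp of the summit were 20, 20 and 15 of the 33. Windows were kept only where at least 150 bases lay in the locus, which bounds how far a match can be. The sequence of the other loci was not analysed here, so these shares describe loci that carry an annotated lncRNA start.

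The loci were spread over gene bodies and intergenic DNA. They overlapped a protein-coding gene body in 1113 cases (49.4%), only a noncoding gene or pseudogene in 408 (18.1%) and no gene in 730 (32.4%). For comparison, 45.7% of the 1139 distal cohesin loci with CTCF in all 3 lists lay in a protein-coding body. The median distance to a protein-coding 5′ end was 46444 bp (quartiles 20386 and 102390 bp), against 23086 bp for the distal CTCF loci. By distance, 218 loci lay 5 to 10 kb away, 963 lay 10 to 50 kb, 493 lay 50 to 100 kb, 533 lay 100 to 500 kb and 44 lay farther. The median locus was 1116 bp wide (455 to 4473 bp), and 6 loci overlapped a microRNA hairpin (MIR4757, MIR4449, MIR6090, MIR8073, MIR4519 and MIR1249).

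Around the threshold of 5 kb, the loci just inside and just outside the rule had total signals between 2781 and 7933. The nearest kept loci were in CSNK1D, 5022 bp from a 5′ end (3777, 3792 and 4505 in control, after ICM and in senescence), and in B4GALT1, at 5043 bp (4571, 2781 and 4093). The nearest left out were in NEK6, at 4967 bp (5110, 4874 and 3985), and in HIVEP1, at 4963 bp (7933, 3556 and 3296).

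The rule asked for a peak in each list and not for its height, and the height differed widely. Total signal ran from 3458 to 118663 in control (median 6221), from 2461 to 46669 in ICM-treated (median 5108) and from 2797 to 26023 in senescent cells (median 4291). The study describes calibration with E. coli reads, but whether it carries over to these values is not known, so each locus was also ranked in its own list. The percentile of a locus is that of its highest-ranked single peak, while its total signal is summed over its peaks. The median locus stood at percentile 55.4 of the control list, 69.0 of the ICM list and 53.9 of the senescent list. Distal loci with CTCF in all 3 lists stood higher, at 71.1, 80.2 and 73.0. Promoter-proximal CTCF-free loci stood at 65.5, 65.1 and 55.0, so that they were above the distal CTCF-free loci in control and below them after ICM. The ICM list is the longest of the 3 and reaches down to a total signal of 2455, against 3456 in control and 2796 in senescent cells, and its part in these percentiles was not tested.

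**Figure D2:**
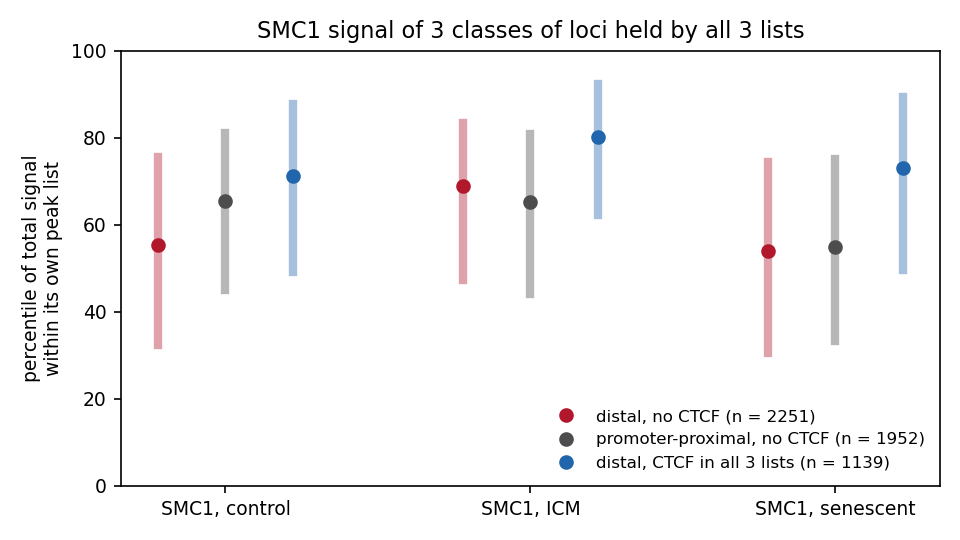
Percentile of SMC1 total signal within each peak list (vertical axis) for 3 classes of loci held by all 3 SMC1 lists; dots are medians over loci and bars run between the quartiles. The distal CTCF-free loci sit at medians of 55.4 in control, 69.0 after ICM and 53.9 in senescent cells.

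Among these loci the strongest in every list was in DRC4 (chr16:90031239-90034615), a gene for a subunit of the dynein regulatory complex, close to the end of chromosome 16. Its total signal was 118663 in control, 46669 after ICM and 26023 in senescent cells, and its highest coverage was 194, 79 and 33. Among the distal CTCF-free loci it was the highest in all 3 lists, with the next of them by senescent signal at 16612. Over all three-list loci the highest totals were 307352, 191644 and 218345. Next by lowest percentile over the 3 lists came a locus at chr14:68694652-68696385, 97031 bp from ZFP36L1, which encodes an RNA-binding protein that speeds mRNA decay, with 23681, 15485 and 16612. A locus at chr1:55428818-55429835, 213454 bp from USP24, had 24309, 20029 and 13368. Inside ZNF469, a gene linked to corneal collagen, the locus chr16:88303627-88304992 had 23942, 16530 and 12810. The other members of the top 10 by this percentile were nearest to EBNA1BP2, ANKRD55, HEG1, UMODL1, DRD1 and MICAL2. They had 18000 to 29767 in control, 12382 to 18008 after ICM and 10451 to 12547 in senescent cells. A percentile is that of a single peak, so a locus with more than 1 peak in a list can rank lower despite a larger summed total. The TIMP2 locus described below, with 35615, 22912 and 16284, is such a case. MICAL2 encodes an actin-oxidizing enzyme and HEG1 a receptor of vessel formation, while DRD1, a dopamine receptor, is a neuronal gene 197257 bp from its locus.

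Relative to the typical cohesin locus, SMC1 ratios over control were slightly higher at the distal CTCF-free loci and slightly lower at promoter-proximal loci, both after ICM and in senescence. Raw total signal over all 8247 three-list loci had a median ratio of 0.723 for ICM over control and 0.639 for senescent over control. The highest raw total was in control for 76.0% of the three-list loci and 67.2% of the distal CTCF-free ones. Whether these lower raw signals are technical or in the cells cannot be told apart here. Log2 ratios were centred on the median of those loci, which sets that common shift aside, so that 0 stands for the typical three-list locus. On that scale the median of the distal CTCF-free loci was 0.14 for ICM over control (95% interval of the median over loci 0.12 to 0.16) and 0.10 for senescent over control (0.077 to 0.12). Promoter-proximal loci had medians of -0.13 and -0.076, and distal CTCF loci 0.13 and 0.075. ICM over senescent gave 0.031 (0.0047 to 0.056) for the distal CTCF-free loci. By total signal the intervals of distal loci with and without CTCF overlapped in all 3 comparisons. By highest signal they overlapped for ICM over control only. Senescent over control was then 0.067 (0.026 to 0.087) without CTCF and 0.15 (0.11 to 0.19) with it, and ICM over senescent was 0.082 (0.049 to 0.12) without and -0.026 (-0.061 to 0) with it. These intervals cover loci within single libraries, and the spread between cultures is unknown. Each locus also needed a peak in every list, so where control signal was low only the higher ratios could be kept. Median control totals were 6221 for the distal CTCF-free loci, 7313 for promoter-proximal, 8026 for distal CTCF and 7649 for all three-list loci. The part of this limit in the medians was not tested. Centred on the distal CTCF loci, the medians of the distal CTCF-free loci were 0.0062, 0.026 and -0.0013.

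**Figure D3:**
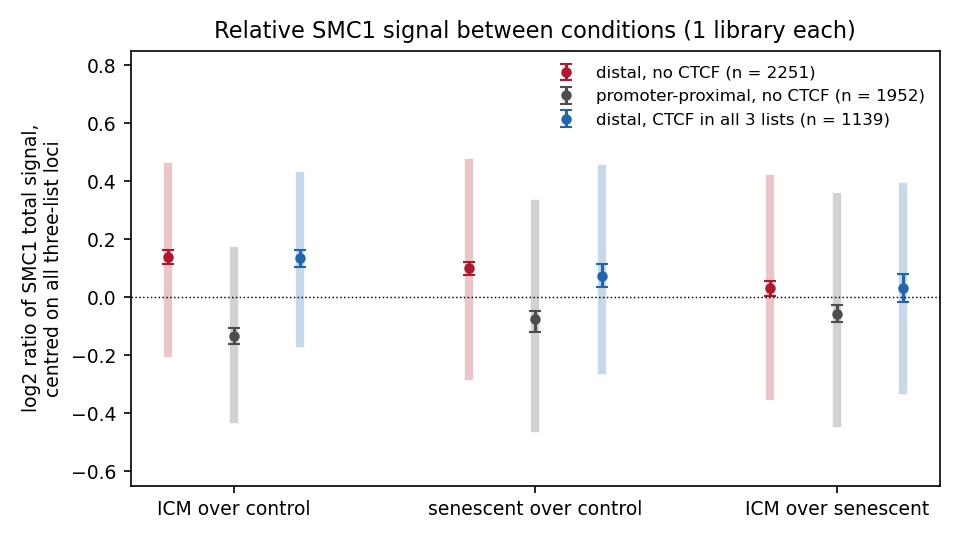
Centred log2 ratios of SMC1 total signal (vertical axis) in 3 comparisons for 3 classes of loci; dots with caps are medians with 95% intervals over loci, pale bars run between the quartiles and the dotted line marks the median of all three-list loci. The distal CTCF-free loci have medians of 0.14, 0.10 and 0.031, and the pale bars of the 3 classes overlap.

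In 2013 of the 2251 loci (89.4%), both ICM and senescent cells were within 2-fold of control on the centred scale, against 88.1% of all three-list loci. A centred ratio of ICM over control at least 2-fold higher was seen in 68 loci (3.02%), against 2.17% of all three-list loci, and at least 2-fold lower in 26 (1.16%), against 2.26%. For senescent over control, 109 were higher (4.84%), against 4.00%, and 63 lower (2.80%), against 4.66%. For ICM over senescent, 83 were higher (3.69%), against 3.32%, and 73 lower (3.24%), against 4.04%. Both ratios over control were at least 2-fold higher in 24 loci (1.07%, against 0.667%) and at least 2-fold lower in 4 (0.178%, against 0.485%). The 2 ratios share the control library, so they are given side by side only. To be counted at all, a locus also had to reach the lowest signal of every list. A locus with a low control signal could therefore not be 2-fold lower. In the control list the distal CTCF-free loci had a median percentile of 55.4, against 68.1 for all three-list loci. How far this sets the differences between these shares was not tested.

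The loci with the largest ratios are named with their values in all 3 libraries, and as single-library values they have no replicate check. Near TLE7, the locus chr16:71426203-71427235 holds the methionine tRNA gene TRM-CAT2-1 and the lncRNA LINC02136. It had 5026 in control, 15164 after ICM and 11062 in senescent cells, centred log2 ratios of 2.06 and 1.78. A locus at chr16:46389638-46391261, beside the centromere of chromosome 16 and nearest to SHCBP1, had 3501, 8680 and 9608 (1.78 and 2.10). Its control value stood at percentile 1.67 of that list, close to the lowest value of 3456. The TLE7 and SHCBP1 loci were the only ones among the top 4 of both comparisons.

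In THY1, which encodes the fibroblast surface protein CD90, a locus 6708 bp from the 5′ end had 3679, 3471 and 8168, and was high in senescent cells alone (1.80 for senescent over control). There the peak was 1815 bp wide against 1013 bp in control, and by highest signal the ratio was 0.08. In PLEKHO2 a locus had 4207, 6806 and 8667 (1.69), the last summed over 2 peaks of 2696 bp against 1 peak of 715 bp in control, and by highest signal the ratio was 0.19. A locus near TBC1D19 was high after ICM alone, with 3686, 8685 and 3400 (1.70 for ICM over control). The control values of the THY1 and TBC1D19 loci stood at percentiles 7.45 and 7.68 of their list. A locus in TNS3, the gene of a focal adhesion protein, had 3985, 8749 and 4260 (1.60), and 0.74 by highest signal.

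A wide locus in DOCK6, nearest to the 5′ end of KANK2, had 43113 in control, 3225 after ICM and 12765 in senescent cells (-3.27 and -1.11), the lowest ratio of ICM over control. Its peak was 4334 bp wide in control, 752 bp after ICM and 3866 bp in senescent cells, and by highest signal, which does not add up over width, the ICM ratio was -1.75. In EPHB3, an ephrin receptor gene, the values were 11617, 3055 and 3420 (-1.46 and -1.12), while by highest signal the ratios were -0.28 and -0.58. The EPHB3 peak was 1414 bp wide in control and 661 bp after ICM. Loci in PLEKHA6 and near SLC45A1 had 12533, 3432 and 6036, and 10522, 2932 and 8420, with ICM over control at -1.40 and -1.38. By highest signal these ratios were -1.07 and -0.29, and the SLC45A1 peak was 1738 bp wide in control and 554 bp after ICM.

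In ETS1, an ETS transcription factor gene, the locus chr11:128466948-128468177 had 19295, 11079 and 3098, the lowest ratio of senescent over control (-1.99). In GRK5, a gene for a receptor kinase, a locus had 15592, 7159 and 2848 (-1.81). A locus in the lncRNA LOC105370777 had 14759, 6637 and 2849 (-1.73). The senescent totals in GRK5 and LOC105370777 stood at percentiles 3.05 and 3.13 of their list, close to its lowest value of 2796. In HORMAD2, 40464 bp from LIF, a locus had 16026, 9491 and 3177 (-1.69). In these 4 loci the total signal after ICM stood between control and senescent cells.

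A gene was called linked when a locus lay in its body or had its 5′ end as the nearest protein-coding one. By this rule 1745 of 19974 protein-coding genes (8.74%) were linked, and 1639 (8.21%) had a 5′ end within 50 kb of a locus. Of the linked genes 1244 had 1 locus and 35 had 5 or more. Linked genes were long, with a median of 60312 bp against 24170.5 bp for all, and the linked share went from 4.74% of genes up to 10 kb long to 19.0% of genes over 100 kb, while the share within 50 kb went from 7.19% to 8.92%. Fibroblast gene lists had larger linked shares than these. Linked were 16 of 32 lung mesenchyme transcription factors (50%), 22 of 45 extracellular matrix genes (48.9%), 12 of 26 growth factor receptors (46.2%), 22 of 50 genes of the actin cytoskeleton and mechanosensing (44%) and 10 of 24 AP-1 and immediate early genes (41.7%). Of the secretory phenotype genes of senescence 11 of 36 were linked (30.6%). Of the cell-cycle arrest list 4 of 15 were linked (26.7%), and 0 of 15 had a 5′ end within 50 kb of a locus. The 4 linked were CDKN1C, GADD45A and the cyclin genes CCND1 and CCND2, so this list did not hold arrest genes alone. Of the genes of cell division and DNA replication 1 of 32 was linked (3.13%), and of the epithelial markers 1 of 13 (7.69%). The share of all genes was 8.74%. Counts were 0 of 10 for blood cell, 0 of 8 for neuron, 0 of 8 for hepatocyte and 3 of 8 for endothelial markers. Lists of 8 to 10 genes are too short to set 0 apart from 8.74%. Median gene length was 136810 bp in the receptor list, 89988 bp in the lung mesenchyme list, 64251 bp in the matrix list, 56886.5 bp in the actin list, 6497 bp in the AP-1 list and 103502 bp in the neuron list, and the part of length in these shares was not tested. The lists were chosen with results of these data known, and no test of a list was made.

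**Figure D4:**
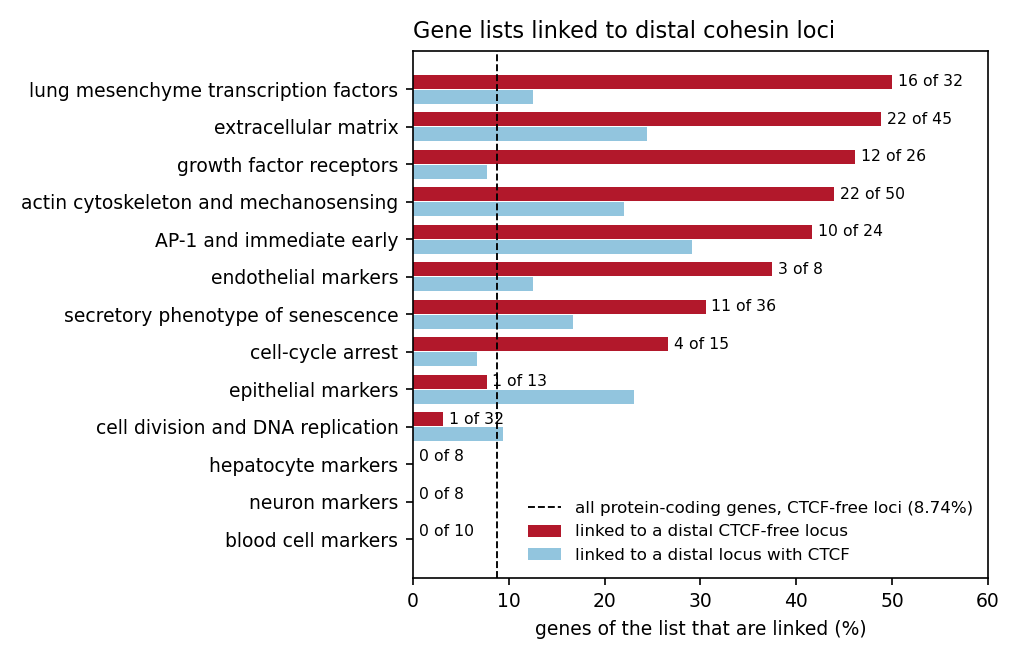
Share of each gene list linked to a distal cohesin locus (horizontal axis, percent, from 0), for loci without CTCF (dark bars, with counts) and for distal loci with CTCF in all 3 lists (pale bars); the dashed line marks 8.74%, the share of all protein-coding genes linked to a CTCF-free locus. Fibroblast lists reach 41.7 to 50%, and the blood, neuron and hepatocyte markers are at 0 by this link rule. Within 50 kb of a 5′ end, 1 of 10 blood cell markers has a CTCF-free locus.

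The 1139 distal loci with CTCF linked 5.92% of all genes. Among the fibroblast lists they linked 4 of 32 lung mesenchyme factors, 11 of 45 matrix genes, 2 of 26 receptors, 11 of 50 actin genes and 7 of 24 AP-1 and immediate early genes. Counting 5′ ends within 50 kb of a CTCF-free locus, the matrix list had 16 of 45 (35.6%), the actin list 22 of 50 (44%) and the AP-1 list 12 of 24 (50%), while the lung mesenchyme list had 6 of 32 (18.8%), the receptors 5 of 26 (19.2%) and the division genes 4 of 32.

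Among matrix genes, TIMP2, an inhibitor of metalloproteinases, had a locus 7903 bp from its 5′ end with 35615 in control, 22912 after ICM and 16284 in senescent cells, and another with 16148, 10847 and 10901. COL6A2, a chain of collagen VI, had a locus with 11547, 10170 and 7685. COL5A1, a chain of the fibrillar collagen V, had a pair of loci with 15048, 7013 and 8009, and with 6340, 5578 and 4200. None of these loci reached a 2-fold centred ratio in either comparison with control.

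CCN1 encodes a matricellular protein induced by YAP and serum. Its 4 loci lie 26016 to 47890 bp from the 5′ end. The strongest had 23809 in control, 14276 after ICM and 6424 in senescent cells, a centred log2 ratio of -1.24 for senescent over control. The next had 10781, 7357 and 3475 (-0.99), the third 6769, 5672 and 3254 (-0.41), and the farthest 9643, 4693 and 6412 (0.06). The 43 loci linked to matrix genes had median centred ratios of 0.19 for ICM and -0.11 for senescent over control, beside 0.14 and 0.10 for all distal CTCF-free loci.

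Among genes of the actin cytoskeleton, TNS3 had the most loci of any named gene, 10, of which 5 lay in its body. Their total signals ran from 3665 to 9299 in control, 2618 to 8749 after ICM and 3325 to 5535 in senescent cells. Centred ratios ran from -0.69 to 1.60 for ICM and from -0.60 to 0.76 for senescent over control, so the loci of this gene did not share a direction. MYH9, which encodes non-muscle myosin heavy chain, had 4 loci, the strongest with 16294, 10288 and 9409. Another MYH9 locus, 34554 bp from the 5′ end, had 3561, 3031 and 6100 (1.42 for senescent over control, and 0.76 by highest signal).

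LIMA1, an actin-bundling protein gene, had a locus with 11549, 6604 and 6635, and TEAD1, the DNA-binding partner of YAP, had a locus with 17405, 9332 and 6745. LPP, a focal adhesion protein gene of 737651 bp, had 7 loci with 3751 to 6217 in control. The 58 loci of this list had medians of 0.15 and -0.016.

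Among transcription factors of the lung mesenchyme, GLI2, the activator of hedgehog signalling, had 9 loci between 11587 and 175797 bp from a 5′ end, 7 of them in its body. The strongest, chr2:120764842-120766805, had 10627 in control, 8861 after ICM and 9374 in senescent cells. Next to it, chr2:120770731-120772624 had 9151, 7787 and 8515, and the distant chr2:120558970-120560071 had 9757, 7083 and 8768. The locus chr2:120867051-120868325 had 4670, 6366 and 6271, centred ratios of 0.92 for ICM and 1.07 for senescent over control. Over the 9 loci the median ratio was 0.21 for ICM and 0.42 for senescent over control, and 7 of the 9 were above 0 in senescent cells. By highest signal the median of senescent over control was 0.11, with 5 of the 9 above 0, and the strongest locus and its neighbour had -0.22 and -0.76.

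FOXL1, a forkhead factor of mesenchymal cells that surround epithelia, had 3 loci, with 7688, 8162 and 7922 at 5821 bp from the 5′ end and with 11572, 7780 and 9659 at 29316 bp. OSR1, a marker of early lung mesenchyme, had 3 loci, the strongest with 15422, 12064 and 5928. RUNX1 had 4, of differing direction. One at 79549 bp had 11285, 4300 and 4120 (-0.92 and -0.81). Another at 167980 bp had 3735, 3300 and 5052 (0.29 and 1.08), the control value at percentile 9.21 of its list. The 39 loci of the list had medians of 0.11 for ICM and 0.26 for senescent over control, and 3 were at least 2-fold higher in senescent cells and 1 lower.

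Among AP-1 and immediate early genes, JUN, an AP-1 subunit, had 3 loci. The nearest, 27827 bp from the 5′ end, had 9496 in control, 7489 after ICM and 2840 in senescent cells (-1.10 for senescent over control), just above the lowest value of the senescent list. The others had 14025, 9448 and 7391, and 12609, 6419 and 8303. MAFK, a small MAF protein gene, had a locus with 15289, 11562 and 6086, IER3 one with 13361, 10840 and 7936, and DUSP1, a phosphatase of MAP kinases, one with 8489, 7463 and 5117. By highest signal the nearest JUN locus had a ratio of -0.32. The 18 loci of the list had medians of 0.095 and -0.021.

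Among growth factor receptors, PDGFRB, the receptor that marks mesenchymal cells, held the widest of all the loci, 4473 bp at chr5:150138036-150142508, with 26424 in control, 13092 after ICM and 11483 in senescent cells. A neighbouring locus in PDGFRB had 8940, 8612 and 6903. EGFR had loci with 7724, 7549 and 7328, and with 4475, 5131 and 3299. IGF1R had 3 that differed, among them one with 11667, 11884 and 7276 and one with 9259, 3043 and 2932 (-1.14 and -1.01, and -1.06 and 0 by highest signal). EPHA2 had a locus with 8819, 4845 and 5189. The 20 loci of this list had medians of 0.42 for ICM and 0.26 for senescent over control, with 2 at least 2-fold higher and 1 lower after ICM. The median of their lowest percentiles over the 3 lists was 20.4, against 31.5 for the matrix loci, so many had a value near the end of a list.

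Among genes of the secretory phenotype, LIF, a cytokine of the interleukin-6 family, had a cluster of 4 loci within 18199 bp (chr22:30195520-30213718), overlapping HORMAD2 and 33041 to 49210 bp from LIF. The farthest from LIF had 18309, 14038 and 10147, and its neighbour 16026, 9491 and 3177. The following had 12222, 6182 and 5430, and the nearest 8053, 6275 and 6122. Centred ratios of senescent over control thus ran from -1.69 to 0.25 within the cluster. By highest signal the ratios of the 4 ran from -0.77 to 0.75.

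TGFB2, a growth factor gene, had 5 loci, of differing direction. One at 134393 bp had 4011 in control, 7595 after ICM and 6085 in senescent cells (1.39 and 1.25), and one at 152647 bp had 6047, 7396 and 3532 (0.76 and -0.13). IGFBP3, a binding protein of insulin-like growth factors, had a locus with 14811, 11843 and 8310, and IL1R1, the interleukin-1 receptor, one with 9081, 5312 and 5138. The 22 loci had medians of 0.031 for ICM and -0.18 for senescent over control, with 1 at least 2-fold higher and 2 lower in senescent cells.

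**Figure D5:**
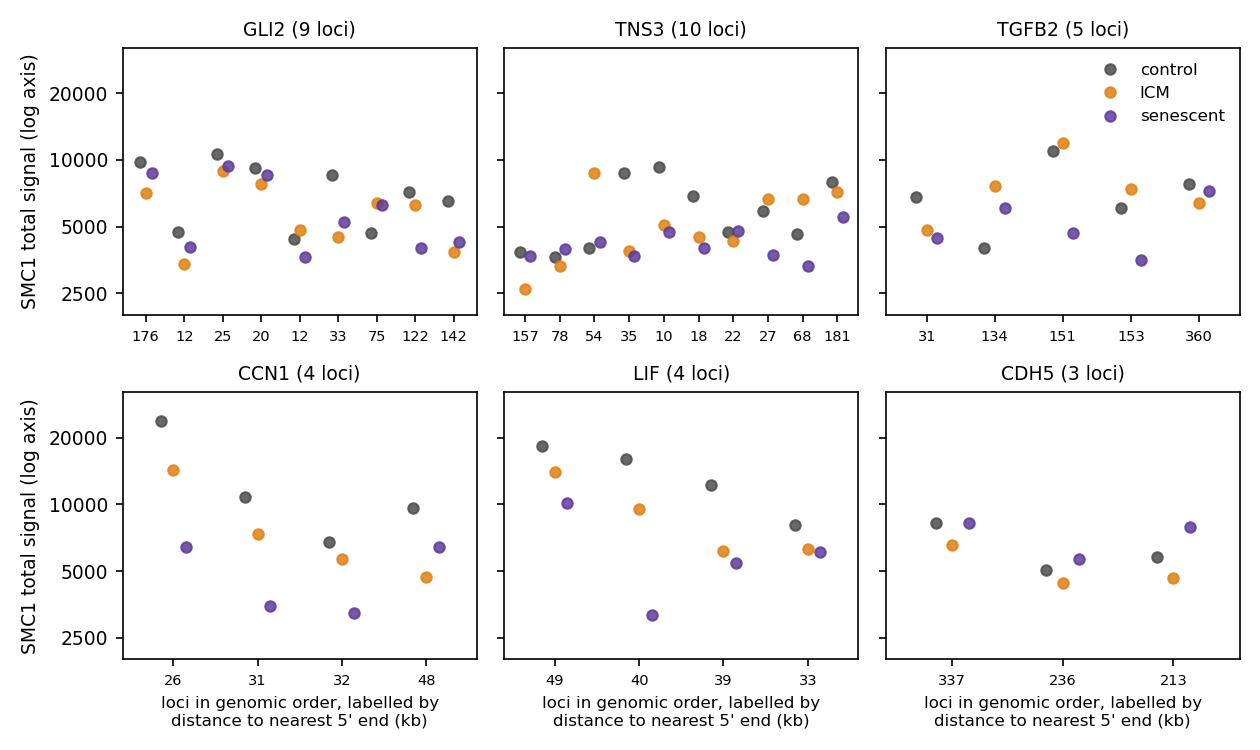
SMC1 total signal (vertical axis, log scale) of each distal CTCF-free locus linked to GLI2, TNS3, TGFB2, CCN1, LIF and CDH5 in the 3 libraries; loci follow genomic order and are labelled with the distance to the nearest protein-coding 5′ end in kb. All 4 CCN1 and all 4 LIF loci are highest in control, as are 67.2% of all distal CTCF-free loci on this raw scale, and 3 of the 5 TGFB2 loci are highest after ICM, as are 21% of all.

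Of the cell-cycle genes, CCND1, which encodes cyclin D1, had a strong locus 143126 bp away with 23260, 13816 and 10159. CDKN1C, an inhibitor of cyclin-dependent kinases, had loci with 8537, 4518 and 3733, and with 7961, 4446 and 3493. GADD45A, induced by DNA damage, had loci with 6458, 6214 and 3260, and with 5281, 5444 and 4430, and CCND2 had a locus with 3847, 3381 and 2999. The 6 loci of the arrest list, those of the cyclin genes among them, had medians of -0.00081 for ICM and -0.44 for senescent over control. None reached 2-fold in either. MCM5, a helicase subunit, was the only linked gene of the 32 on the division and replication list. It had a locus with 3749, 2675 and 5672 (1.24 for senescent over control), the control value at percentile 9.56 of its list.

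Of the markers of other cell types, the endothelial cadherin gene CDH5 was the nearest protein-coding 5′ end to 3 loci at 213090 to 337107 bp, all outside its body. They had 5798, 4652 and 7926, then 5083, 4399 and 5689, and 8244, 6591 and 8268. Senescent over control was above 0 in all 3 (0.65 to 1.10). VWF had loci with 9863, 7633 and 5850 and with 6714, 4267 and 3122, TEK a locus with 7974, 4841 and 3453, and CLDN4, a tight junction gene, one with 8597, 8436 and 4587. Expression of these genes was not analysed here.

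Some loci stood in clusters. With neighbours less than 12500 bp apart joined, 1882 loci stood alone, 139 groups held 2, 21 held 3 and 7 held 4. Beside the LIF cluster, groups of 4 were found at CPA1 and CPA5 (chr7:130355848-130374520), with summed total signals of 55311 in control, 35862 after ICM and 25768 in senescent cells, and near the microRNA host gene MIR365BHG (chr17:31570931-31597795), with 38065, 25760 and 26610. In CUEDC1 (chr17:57860435-57881835) a group had 22160, 18481 and 17328.

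Several genes gathered many loci over long stretches. ZMIZ1, a coactivator of nuclear receptors, had 9, with 5066 to 9038 in control and centred ratios from -0.67 to 0.24 for ICM and from -0.57 to 0.80 for senescent over control. ZFP36L1 had 7 at 97031 to 248790 bp, all outside its body. TOMM20 was nearest to 7 at 52609 to 202236 bp, with 9214 to 16352 in control, and their ratios of senescent over control ran from -0.99 to 0.11. ZNF469 had 7 in its body, with a median ratio of -0.34 in senescent cells. PRKCE, a protein kinase C gene, had 8 in its body, of which 6 were also linked to the neighbouring EPAS1, the gene of the hypoxia factor HIF-2alpha, because its 5′ end was nearest. EPAS1 had 7, and the locus in its own body had 7791, 10022 and 6168. LOC124903470, a predicted gene on chromosome 15, had 7 at 174448 to 451086 bp.

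The rule left out every locus that a listed CTCF peak touched, so distances to CTCF peaks are partly set by that choice. The nearest listed CTCF peak was at a median of 127809 bp (control list), 83968 bp (ICM list) and 74185 bp (senescent list). This order follows the growing length of the CTCF lists. A CTCF peak lay within 1 kb of 34 loci. Promoter-proximal CTCF-free loci were at 115676, 70745.5 and 61349.5 bp. The position of highest SMC1 signal moved little between conditions. Summits of the same locus were a median of 32 bp apart between ICM and control, 51 bp between senescent and control and 51 bp between ICM and senescent cells, and 82.7%, 72.9% and 73.4% lay within 100 bp. Promoter-proximal loci had medians of 39, 61 and 62 bp, and distal CTCF loci 29, 42 and 46 bp.

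Many distal CTCF-free loci were absent from some SMC1 lists. Of 9323 such loci in any list, 2251 (24.1%) were in all 3, 2476 in 2 and 4596 in 1. Of those in 1 list, 2738 were in the ICM list alone, 1173 in the senescent list alone and 685 in the control list alone. Each list ends at its own lowest signal, so a locus missing from a list can still have signal below that limit.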

How the data were processed

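CTCF and SMC1 were profiled by CUT&Tag in 6 libraries, 1 per antibody and condition. Per the labels, the authors used Bowtie2 2.3.4.1, Picard 2.20.7, deepTools and SEACR 1.3 on GRCh38, and per the study's methods carry-over E. coli reads served for calibration. Peaks were called in each library alone, with the top 1% of regions kept and no pooling. The deposited lists give position, total signal (coverage summed over the peak), highest signal and its region. These signal values are the authors' own, all whole numbers, and were used as deposited. The CTCF motif filter described in the study was not rerun. The peak on mitochondrial DNA in each list was left out, and 0 columns of per-sample values went unused.

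Peaks of the 3 SMC1 lists that overlapped by 1 bp or more were merged into loci with Python 3.11.15, numpy 2.4.6, pandas 2.3.3 and scipy 1.17.1. The total signal of a locus was summed over its peaks in a list, and its percentile was that of its highest-ranked single peak. Protein-coding 5′ ends were all 28658 starts of 19974 genes in RefSeq GRCh38.p14 tables. Strand came from the start windows for 15812 genes and by symbol from GENCODE v44 for 3818, and for 344 genes of unknown strand both ends were kept away from. The highest chromosome 17 peak end (83206712 bp) was checked to lie within the GRCh38 gene table. The genome sequence at hand was of another build and was not used.

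Log2 ratios were centred on the 8247 three-list loci. Shares carry exact (Clopper-Pearson) 95% intervals. With 1 library per group no test was run, so no error between cultures can be given, and the ratio and counting steps were tested on simulated data. Members and gene lists were chosen with earlier results of these data known. Named in the text, by rule, are the 10 loci with the highest lowest percentile of total signal, the 4 highest and 4 lowest ratios over control in each comparison with the same sign in the highest signal, the 10 genes with most loci, up to 4 genes a list, the 2 loci either side of 5 kb, the longest chains and the widest loci. Loci on chromosome 8 were counted and not named. Some loci that the rule names are not reported here. Alternatives were the distance (2.5 and 10 kb), which starts count, CTCF within 1 kb, shorter lists, 100 bp summit windows, single-peak loci, highest signal, mean coverage, another centring and links within 50 kb. Counting only the outermost 5′ ends was added after seeing the data.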

Additional observations from a re-analysis of the deposited data

How the results depend on the processing

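No paired analysis was possible because each group has 1 library and no result comes from a test. The distal CTCF-free loci were 27.3% of three-list loci, and the share was 28.9% with a distance of 2.5 kb from 5′ ends, 24.6% with 10 kb, 21% when starts of all annotated genes counted, 25.9% with lists cut to equal length, 31.0% with 100 bp windows at summits, and 29.4% with outermost 5′ ends only, the last chosen after seeing the data. Kept to the upper part by signal of each SMC1 list (above its median), it was 19.4%, with 759 loci and 688 linked genes. The median ratio of ICM over control, 0.14, was 0.16 with starts of all genes, 0.10 for mean coverage and 0.0062 when centred on distal CTCF loci. Senescent over control, 0.10, was 0.048 in the stricter lists, 0.074 with summit windows, 0.067 for highest signal, 0.025 for mean coverage and 0.026 with the other centring. ICM over senescent, 0.031, was 0.078 in the stricter lists, 0.082 for highest signal, 0.088 for mean coverage and, reversed, -0.0013 with the other centring. The other centring takes the distal CTCF loci as 0, so its values restate how far apart distal loci without and with CTCF were. The cause of the other shifts was not tested. With 5′ ends within 50 kb the lung mesenchyme list had 6 linked genes in place of 16 and the receptors 5 in place of 12, and above the median signal the matrix list had 9 in place of 22 and the receptors 4. In 49 other recomputations these main values stayed within their intervals or, for counts, within 1.5 times. Sequencing depth is unknown, which limits every statement on absence from a list.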
